A study of Mus musculus with 9 samples.

Results

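The genes examined here build the MHC class I antigen presentation route. They are the 10 genes H2-K1, H2-D1, B2m, Tap1, Tap2, Tapbp, Psmb8, Psmb9, Psmb10 and Nlrc5, found by their symbols among the 22337 genes of the deposited expression table. Each symbol matched 1 row, and all 10 passed the filter on low counts in every comparison. RNA-seq was carried out on mouse retinas at postnatal day (P) 28, with 3 libraries in each of 3 groups. WT mice were untreated C57BL/6J animals. The NS and MSC-EVs groups were both rd10 mice, which carry a homozygous missense mutation in Pde6b, the rod phosphodiesterase gene, and lose their rods in the weeks around this age. NS mice received normal saline, and MSC-EVs mice received extracellular vesicles from human umbilical cord mesenchymal stem cells, so human vesicles were given to mouse eyes. Both were injected at P14 and P21, at 1 µl in each eye, into the vitreous by the growth protocol in the labels, although the treatment protocol words the route as intravenous. WT mice were not injected and came from another supplier than rd10 mice, so genotype, injection and supplier cannot be told apart in any comparison with WT. The methods of the study count animals or retinas as n and do not say whether a library came from 1 animal or from pooled ones. The p-values therefore measure the spread between these libraries, which may be partly technical.

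The total estimated count per library lay between 19491717 and 28545619 in 8 libraries and was 62532343 in MSC-EVs replicate 3. Another difference set MSC-EVs replicates 1 and 2 apart from all other libraries. The summed FPKM (fragment counts scaled to transcript length and library size, a level per length) of the Y-linked genes Kdm5d, Uty, Ddx3y and Eif2s3y was 51.0 and 53.6 in MSC-EVs replicates 1 and 2. It was between 0.07 and 0.14 in the other 7 libraries, MSC-EVs replicate 3 included. Y-linked genes mark male tissue, and the labels do not give the sex of the mice. In MSC-EVs replicates 1 and 2, this difference cannot be told apart from the treatment, against NS or against WT. Results on the MSC-EVs group are therefore also given with and without replicate 3.

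Nearly all nucleated cells can show fragments of their own proteins to CD8 T cells on MHC class I molecules. The proteasome cuts the proteins, the TAP transporter carries the peptides into the endoplasmic reticulum, tapasin holds an empty class I molecule next to TAP, and a heavy chain with β2-microglobulin takes the peptide to the cell surface. Interferons induce the whole route, in part through IRF factors, and NLRC5 is the transactivator devoted to class I genes. In healthy brain and retina class I levels are low compared with other tissues, and microglia are among the cells that can raise them.

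In NS-treated rd10 retinas, all 10 genes were higher than in WT. Of them, 9 were differentially expressed (an adjusted p under 0.05 and at least a 1-unit log2 change), and all 9 were higher. Tapbp also had an adjusted p under 0.05 but rose by less than the limit on the fold change. In the same comparison, 9.16% of the 14644 genes tested were differentially expressed and higher. The median log2 fold change was 3.08 over the 10 genes and 0.0053 over all genes tested. With MSC-EVs the 10 genes were above WT too, and none differed from NS in the test.

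H2-K1 and H2-D1 encode the classical class I heavy chains, which hold the peptide, and B2m encodes β2-microglobulin, the light chain that every class I heavy chain needs. On GRCm38 with the GENCODE M21 annotation, H2-K1 (ENSMUSG00000061232) lies at chr17:33996017-34000347 on the minus strand and H2-D1 (ENSMUSG00000073411) at chr17:35262730-35267499 on the plus strand. B2m (ENSMUSG00000060802) lies at chr2:122147686-122153083 on the plus strand. The build that the authors aligned to is not given in the sources used here, so positions come from matching the gene identifiers.

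Before their levels, the promoters of these genes are shown, since they rose together from different places in the genome. Each stretch holds 120 bases upstream of a RefSeq transcription start (GRCm38.p6), from 135 to 16 bases before it in H2-K1, 181 to 62 in H2-D1 and 158 to 39 in B2m. The H2-D1 stretch lies within the gene as GENCODE draws it, which starts further upstream. They are chr17:34000349-34000468 on the minus strand for H2-K1, chr17:35262913-35263032 on the plus strand for H2-D1 and chr2:122147529-122147648 on the plus strand for B2m. In each stretch the capitals mark a κB site, an interferon-type element, the letters TGACG and the letters ATTGG. In H2-K1 and H2-D1 the κB site comes first, the interferon-type element is GAANNGAAA on the opposite strand, and the first κB capitals cover overlapping matches on both strands. In B2m the element is GAAA, any 2 bases and GAAA again, and comes before the κB site, which is read on the opposite strand.
H2-K1: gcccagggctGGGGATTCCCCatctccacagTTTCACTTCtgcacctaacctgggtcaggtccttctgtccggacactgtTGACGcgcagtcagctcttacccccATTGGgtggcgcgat
H2-D1: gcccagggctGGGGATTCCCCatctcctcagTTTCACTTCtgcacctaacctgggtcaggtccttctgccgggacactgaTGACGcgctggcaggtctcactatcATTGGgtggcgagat
B2m: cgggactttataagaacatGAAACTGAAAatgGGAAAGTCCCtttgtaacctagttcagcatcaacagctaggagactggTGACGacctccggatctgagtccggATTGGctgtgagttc

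The H2-K1 and H2-D1 stretches were identical at 108 of 120 positions (90.0%), while B2m matched H2-K1 at 47 positions (39.2%) and H2-D1 at 46 (38.3%). In all 3 stretches TGACG and ATTGG, letters found in the X2 and Y boxes of class I promoters, started 25 bases apart. Among the 32851 mouse promoters of the RefSeq table, each with 250 bases before and 50 bases after the start, 20.8% held TGACG and 37.4% held ATTGG on either strand. Only 31 promoters (0.0944%) held them at this spacing, and 0.435% held them 20 to 30 bases apart. GAANNGAAA was found in 7.52% of the promoters, the longer element of B2m in 3.44% and the κB site in 8.46%. A κB site, an interferon-type element and the 25-base spacing occurred together in 5 promoter entries (0.0152%), which belonged to H2-K1 (2 entries), H2-D1, B2m and H2-M3. The promoters of Tap1, Psmb8, Psmb9, Psmb10 and Tapbp held neither a κB site nor an interferon-type element by these letters nor the spacing. Those of H2-Q4, H2-Q6, H2-T22 and H2-M2 held a κB site and an interferon-type element without the spacing, and that of H2-Q7 held both with a spacing of 24 bases. H2-M2 had at most 2 counts in any library. Tap2 and Nlrc5 have no entry in the table. The letters and the spacing were chosen after these promoters had been read, and a match of letters does not show that a factor binds there.

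The level of H2-K1 in WT was 10.96, 12.4 and 12.8 FPKM in replicates 1 to 3. In NS it was 156.1, 151.7 and 126.7 FPKM, and in MSC-EVs 149.99, 177.2 and 97.0 FPKM. All rd10 libraries lay far above WT, and NS and MSC-EVs overlapped. H2-K1 was 3.44 log2 units higher in NS than in WT (standard error 0.10, edgeR adjusted p = 1.23e-09). H2-D1 rose less. Its level was 19.8, 20.7 and 23.4 FPKM in WT, 144.0, 144.3 and 120.1 FPKM in NS, and 144.1, 169.6 and 112.9 FPKM in MSC-EVs. The increase from WT to NS was 2.496 log2 units (standard error 0.09, edgeR adjusted p = 6.34e-09).

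The balance of the heavy chains differed between the groups. H2-D1 was above H2-K1 in all WT libraries, while in NS and in MSC-EVs the libraries of the 2 genes overlapped. H2-D1 made up 64.4%, 62.5% and 64.7% of the summed H2-D1 and H2-K1 FPKM in the WT libraries, and 48.0%, 48.8% and 48.7% in NS. In MSC-EVs the share was 49.0%, 48.9% and 53.8%, the highest of these in replicate 3. The difference between NS and WT was -15.4 percentage points. That between MSC-EVs and NS was 2.10 points, of which most came from replicate 3 (0.489 without it). No pair of groups overlapped, and each gave the same p (exact permutation test, two-sided, p = 0.1, the smallest p that 3 against 3 libraries allow, also after adjustment over the 3 pairs of groups). Some stretches of the 2 genes cannot be told apart by sequence. Of the 50-base stretches in their annotated transcripts, H2-D1 shares 12.8% with other genes (5.44% with H2-K1) and H2-K1 shares 9.63% (4.08% with H2-D1), so part of their reads is uncertain.

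B2m was the most abundant of the 10 genes in every group mean. Its level was 22.96, 26.2 and 22.8 FPKM in WT, 450.1, 374.8 and 320.6 FPKM in NS, and 420.0, 453.9 and 243.6 FPKM in MSC-EVs. All WT libraries lay far below the lowest rd10 library, MSC-EVs replicate 3. B2m was 3.82 log2 units higher in NS (standard error 0.14, edgeR adjusted p = 1.42e-07), and none of its 50-base stretches is shared with another gene. The light chain rose more than the heavy chains together. The ratio of B2m to summed H2-D1 and H2-K1 FPKM was 0.721 ± 0.0832 in WT and 1.36 ± 0.126 in NS (SD, n = 3), and from 1.16 to 1.43 in MSC-EVs. This ratio was chosen after the values were seen and was not tested.

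**Figure D1:**
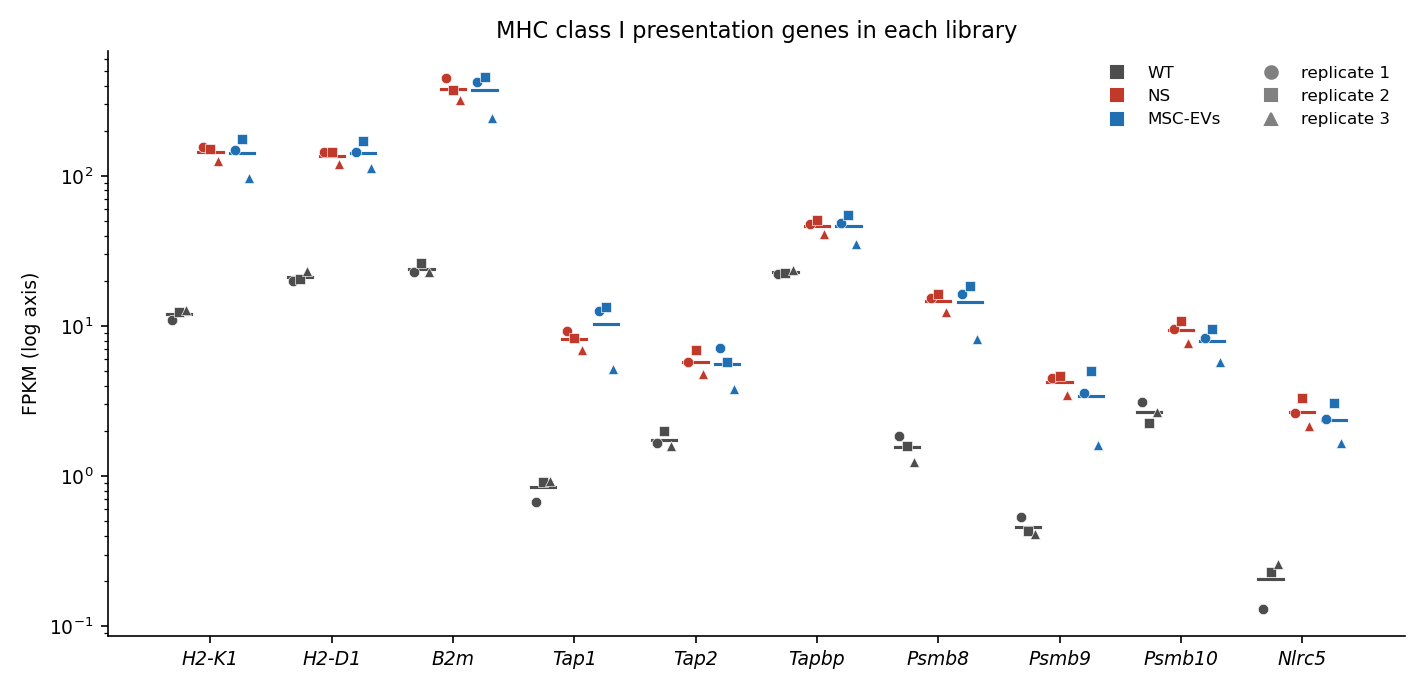
FPKM of the 10 class I genes (log axis) in each library, with circles, squares and triangles for replicates 1, 2 and 3 and a short line at the group mean. All rd10 libraries lie above all WT libraries for each gene, and MSC-EVs replicate 3 is the lowest library of its group for all 10.

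The genes of the peptide loading complex differed among themselves. Tap1 and Tap2 encode the partner chains of the TAP transporter, and Tapbp encodes tapasin. Tap1 (ENSMUSG00000037321) lies at chr17:34187553-34197225 and Tap2 (ENSMUSG00000024339) at chr17:34203527-34216321, both on the plus strand. Tap1 was at 0.67, 0.92 and 0.93 FPKM in WT, 9.27, 8.35 and 6.90 FPKM in NS, and 12.6, 13.3 and 5.21 FPKM in MSC-EVs. It was 3.11 log2 units higher in NS than in WT (standard error 0.16, edgeR adjusted p = 2.03e-08). Tap2, its partner in the heterodimer, was at 1.65, 2.01 and 1.58 FPKM in WT, 5.75, 6.87 and 4.77 FPKM in NS, and 7.11, 5.80 and 3.81 FPKM in MSC-EVs. It rose by 1.55 log2 units in NS (standard error 0.15, edgeR adjusted p = 3.06e-06), less than Tap1. In WT the mean level of Tap2 was 1.75 FPKM and that of Tap1 0.840 FPKM, with no overlap between the libraries. In NS, Tap1 was above Tap2 with means of 8.17 and 5.80 FPKM, again without overlap.

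Tapbp (ENSMUSG00000024308, chr17:33915899-33929292, plus strand) had the smallest fold change of the 10 genes in NS. It was at 22.1, 22.6 and 23.6 FPKM in WT, 48.0, 50.8 and 41.2 FPKM in NS, and 48.8, 54.8 and 35.2 FPKM in MSC-EVs. The groups did not overlap between WT and either rd10 group, and the log2 fold change in NS was 0.85 (standard error 0.08, edgeR adjusted p = 2.62e-06). In WT, the mean level of Tapbp was 22.8 FPKM, below that of B2m and above that of H2-D1 (21.3 FPKM), and the libraries of these 3 genes overlapped. A noncoding gene on the other strand, Gm19412, overlaps 904 exonic bases of Tapbp, and 23.2% of the 50-base stretches of Tapbp are found in other genes. Tap2 overlaps Gm15821 by 533 exonic bases. The library protocol does not state that strand was kept, so reads from these bases cannot be assigned with certainty.

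Psmb8, Psmb9 and Psmb10 encode the inducible catalytic subunits of the immunoproteasome, which take the places of the constitutive subunits encoded by Psmb5, Psmb6 and Psmb7 and favour peptides that fit class I molecules. Psmb9 (ENSMUSG00000096727, chr17:34181987-34187764, minus strand), Tap1, Psmb8 (ENSMUSG00000024338, chr17:34197721-34201454, plus strand) and Tap2 stand side by side within 34.3 kb. Tap1 and Psmb9 start back to back, and their 300-base promoter windows share 275 bases. They also share 212 exonic bases on opposite strands, which makes 4.19% of the 50-base stretches of Psmb9 uncertain. Psmb8 shares 11.9%, nearly all with Gm20496 on the other strand. Psmb10 (ENSMUSG00000031897) lies at chr8:105935735-105938444 on the minus strand and shares none.

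Psmb8 was at 1.85, 1.58 and 1.25 FPKM in WT and 15.4, 16.3 and 12.4 FPKM in NS. It was at 16.4, 18.5 and 8.16 FPKM in MSC-EVs, so that the rd10 groups overlapped. From WT to NS it rose by 3.10 log2 units (standard error 0.18, edgeR adjusted p = 3.61e-08). Psmb9 was at 0.53, 0.43 and 0.41 FPKM in WT, with 12 to 14 counts per library, and at 4.50, 4.64 and 3.48 FPKM in NS. In MSC-EVs it was at 3.56, 5.02 and 1.60 FPKM, the lowest rd10 value being that of MSC-EVs replicate 3. The rise of Psmb9 in NS was 3.06 log2 units (standard error 0.24, edgeR adjusted p = 4.99e-07). Psmb10 was at 3.13, 2.26 and 2.67 FPKM in WT. It was at 9.59, 10.9 and 7.75 FPKM in NS and 8.34, 9.62 and 5.79 FPKM in MSC-EVs. Its log2 fold change in NS was 1.63 (standard error 0.17, edgeR adjusted p = 5.21e-06).

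The constitutive counterparts were not differentially expressed. Psmb5 was at -0.07 log2 units in NS against WT (edgeR adjusted p = 0.41) and Psmb7 at -0.10 (edgeR adjusted p = 0.204). Psmb6 was at -0.27 (standard error 0.07, edgeR adjusted p = 0.00393), well inside the limit on the fold change. The FPKM ratio of Psmb8 to Psmb5 was 0.0376, 0.0310 and 0.0250 in WT, 0.301, 0.272 and 0.240 in NS, and 0.348, 0.392 and 0.172 in MSC-EVs. The mean log2 ratio was 3.13 units higher in NS than in WT. For Psmb9 to Psmb6 the difference was 3.29 and for Psmb10 to Psmb7 it was 1.73. In each of these 3 ratios all NS libraries lay above all WT libraries (exact permutation test, two-sided, p = 0.1, the smallest possible, and 0.150 after adjustment over 9 tests). The constitutive subunits were still the more abundant in every library. The highest ratio of the 3, that of Psmb8 to Psmb5 in MSC-EVs replicate 2, was 0.392.

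**Figure D2:**
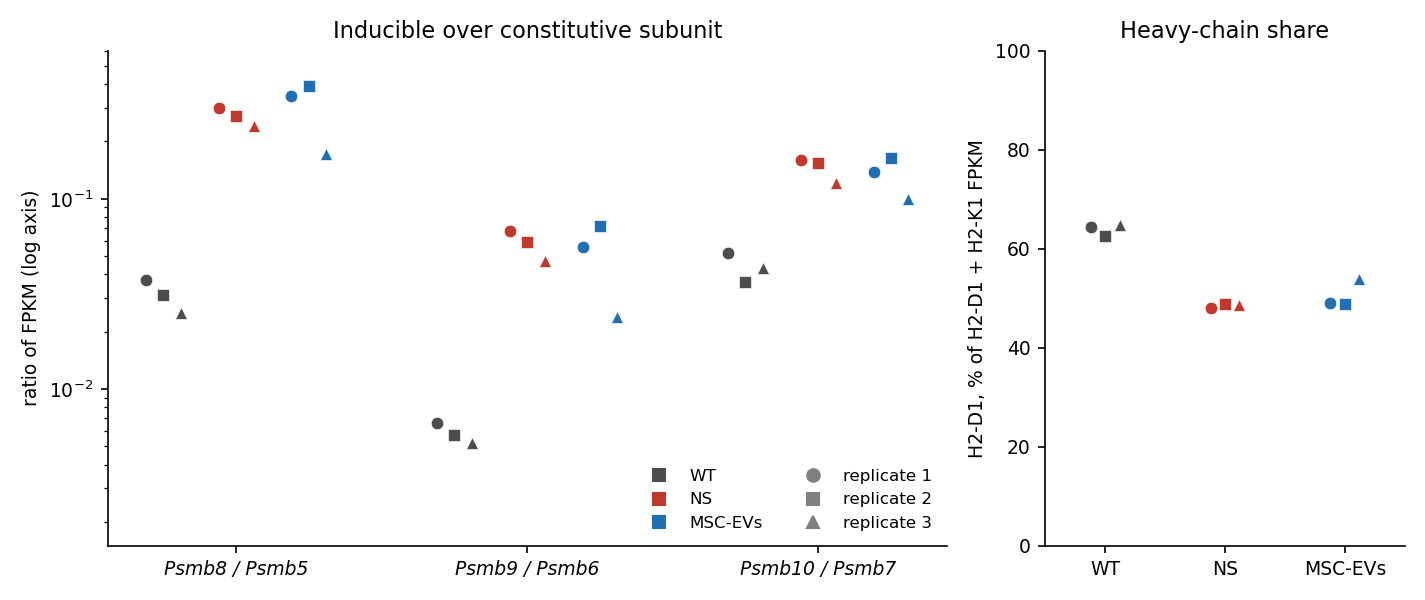
Left, FPKM of each inducible proteasome subunit over its constitutive counterpart (log axis). Right, H2-D1 as a percent of the H2-D1 and H2-K1 FPKM, with colours for groups and symbols for replicates as labelled. The 3 proteasome ratios are higher in every rd10 library than in every WT library, and the H2-D1 share falls from 62.5% or more in WT to 53.8% or less in rd10.

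Nlrc5 (ENSMUSG00000074151, chr8:94434356-94527272, plus strand) encodes the class I transactivator and was the least abundant of the 10 genes in each group mean. It was at 0.13, 0.23 and 0.26 FPKM in WT, from 13, 16 and 16 counts, and at 2.62, 3.29 and 2.15 FPKM in NS, from 381, 227 and 156 counts. MSC-EVs libraries had 2.39, 3.08 and 1.66 FPKM. Nlrc5 had the largest fitted rise of the 10 genes in NS, 3.89 log2 units (standard error 0.27, edgeR adjusted p = 2.06e-07), with a 95% interval of 3.30 to 4.47 that overlaps that of B2m (3.49 to 4.15). Its value depended on the scale, at 1.60 with limma on log2(FPKM + 1) and 3.19 on log2(FPKM + 0.1).

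Across the 10 genes, the libraries of NS all lay above those of WT, which was so for 33.6% of all genes tested. B2m, H2-K1 and H2-D1 together made up 65.4 ± 1.18% of the summed FPKM of the 10 genes in WT, 87.8 ± 0.919% in NS and 87.9 ± 0.137% in MSC-EVs (SD, n = 3). Leaving out any 1 library again gave 9 differentially expressed genes in NS against WT. These are bulk samples, in which more cells of one type and more RNA per cell cannot be told apart.

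Other heavy chains that belong to the same family rose with them. The list of non-classical class I and class I-like heavy chains held 19 genes, of which 12 passed the filter on low counts. In NS against WT, 10 of the 12 were differentially expressed and higher, none was lower, and the median log2 fold change was 1.91. H2-Q2 passed the filter only through the NS libraries, so its direction was fixed by the filter. Of the other 11, 9 were higher, with a median of 2.49. The largest were H2-Q6 (4.28, standard error 0.14, edgeR adjusted p = 8.66e-10), H2-Q4 (3.75, standard error 0.16), H2-Q7 (3.74, standard error 0.22) and H2-T23 (3.02, standard error 0.21, edgeR adjusted p = 5.06e-06). H2-T23 encodes Qa-1, a ligand of inhibitory receptors on natural killer cells. The H2-Q genes are near copies of each other. H2-Q6 shares 35.0% of its 50-base stretches with other genes, H2-Q4 36.4%, H2-Q7 26.5% and H2-T23 14.5%, so which of them the reads came from is uncertain. H2-M3, which presents formylated peptides, was singled out for its promoter after its values were seen. It was at 0.35, 0.38 and 0.35 FPKM in WT and 2.75, 3.82 and 2.41 FPKM in NS, 2.87 log2 units higher (standard error 0.27, edgeR adjusted p = 2.61e-06). Only 0.576% of its 50-base stretches are shared.

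The helper genes of the route were counted next. Of 7 genes for peptide trimming and loading chaperones, 2 were differentially expressed in NS, both higher, beside 9.16% of all genes, and 4 were higher at an adjusted p under 0.05, which 61.3% of all genes reached in either direction. The median was 0.28. These were Tapbpl, a tapasin relative that edits peptides (1.09 log2 units, standard error 0.12, edgeR adjusted p = 1.12e-05), and Erap1, the aminopeptidase that trims them in the endoplasmic reticulum (1.07, standard error 0.11, edgeR adjusted p = 3.65e-06). The most abundant gene of this list, Calr, which encodes calreticulin, was at 0.07 on the log2 scale (edgeR adjusted p = 0.453), and was named after its values were seen. None of the 5 proteasome activator and assembly genes was differentially expressed by edgeR or DESeq2. By edgeR, 4 passed 0.05 before adjustment and 3 after it, 2 of them higher and 1 lower, beside 65.0% and 61.3% of all genes. The largest value was that of Psme1, a PA28 subunit (0.98, standard error 0.08, edgeR adjusted p = 1.02e-06), which was named after its values were seen. The 14 constitutive 20S proteasome genes lay between -0.27 and 0.07, and none was differentially expressed by edgeR or DESeq2, with 4 past 0.05 before adjustment and 3, all lower, after it.

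Of 15 regulators of class I transcription, 5 were differentially expressed in NS, all higher, with a median of 0.52 over the list. Irf8, a myeloid interferon regulatory factor, was 2.53 log2 units higher (standard error 0.18, edgeR adjusted p = 2.76e-07). Irf1, which binds interferon-type elements in class I promoters, was at 2.28, 2.87 and 2.34 FPKM in WT and 17.3, 11.4 and 10.3 FPKM in NS, 2.26 log2 units higher (standard error 0.13, edgeR adjusted p = 4.80e-08). Irf9 was 2.07 and Stat3 1.70 log2 units higher. Rfx5, a subunit of the RFX complex that binds the X box, was at 0.04 on the log2 scale (edgeR adjusted p = 0.628), and was also named after its values were seen.

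The interferon genes looked at were at or near 0. Ifng had 1 count in WT replicate 3 and 0 in each of the other 8 libraries. Ifnl2 and Ifnl3 had 0 counts in all 9. Ifna4 had 2 counts in NS replicate 3 and 0 elsewhere. For each library, a count of 0 allows up to 3 counts. Ifnb1 had 0 counts in every WT library, 0, 1 and 0 in NS, and 3, 7 and 7 in MSC-EVs and did not pass edgeR's filter. Of 9 tested genes in the list of interferons, receptors and their signalling, 3 were differentially expressed and higher in NS, with a median of 0.24 over the 9. Socs1 passed the filter only through the NS libraries, and of the other 8 genes 2 were higher, with a median of 0.12. Socs3 and Socs1, feedback inhibitors of cytokine signalling, were 4.18 (standard error 0.12) and 1.31 log2 units higher (standard error 0.35). The type I interferon receptor subunit Ifnar2 was 1.04 higher (standard error 0.09, edgeR adjusted p = 1.44e-06).

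**Figure D3:**
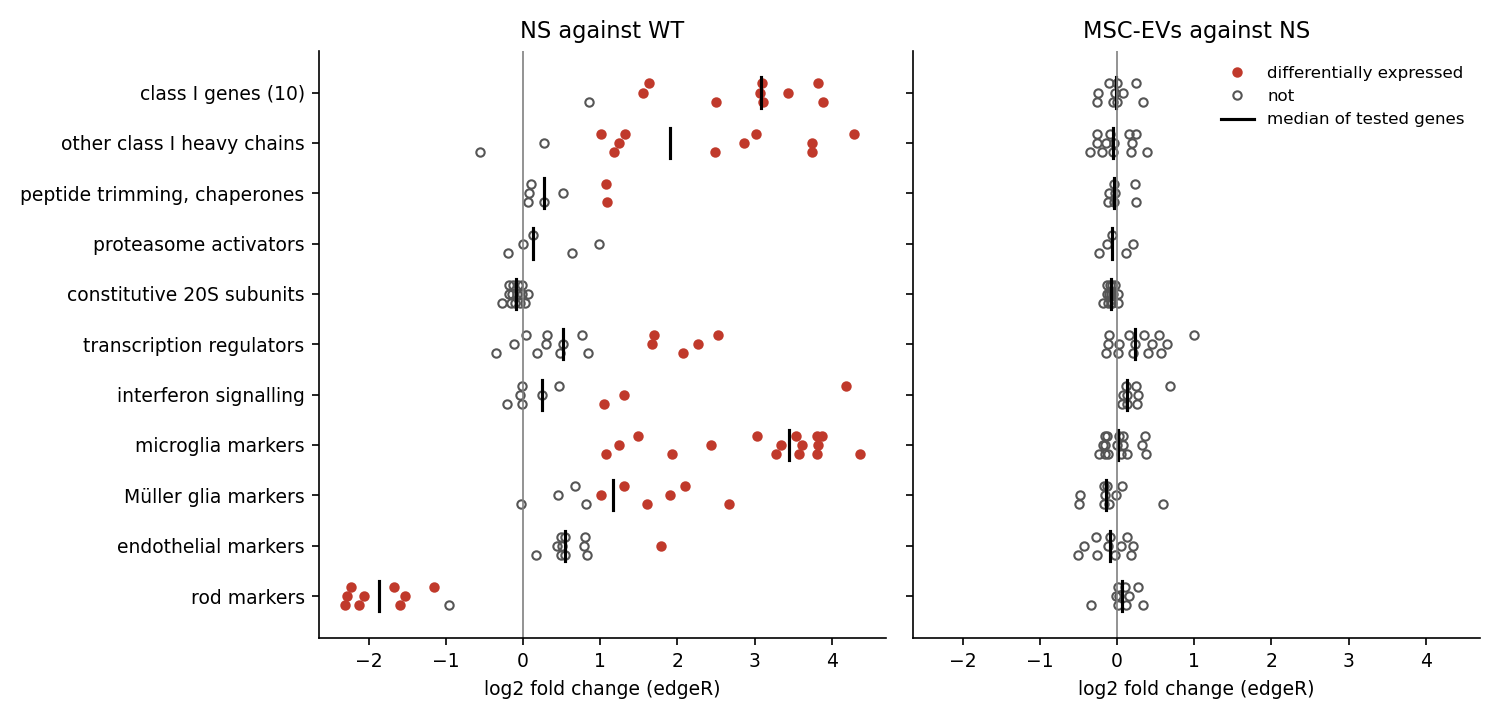
Log2 fold change of each tested gene in the pathway and marker lists, for NS against WT (left) and MSC-EVs against NS (right), with filled points for differentially expressed genes and a bar at the median of each list. In NS the class I genes, the other heavy chains and the microglia markers lie mostly above 1, the constitutive 20S subunits lie around 0, and no listed gene is filled on the right.

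Markers of microglia and macrophages moved with the class I genes. All 16 of these markers were differentially expressed and higher in NS, with a median log2 fold change of 3.44. Aif1 and Ptprc passed the filter only through the NS libraries, and the other 14 were all higher, with a median of 3.31. Their summed FPKM was 51.2, 47.3 and 49.4 in WT, 489, 455 and 395 in NS, and 475, 556 and 312 in MSC-EVs. The summed FPKM of the 10 class I genes was 83.8, 89.4 and 89.7 in WT, 845, 772 and 646 in NS, and 813, 911 and 515 in MSC-EVs. Both sums thus had the same order over the 6 rd10 libraries. The class I sum divided by the microglia sum was 1.78 ± 0.129 in WT, 1.69 ± 0.0475 in NS and 1.67 ± 0.0392 in MSC-EVs (SD, n = 3). A ratio of sums does not show that single genes kept one. None of the 16 markers was at 0 in WT. The part of the microglia in the rise of the class I genes was not tested, and this ratio of sums was chosen after the values were seen.

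**Figure D4:**
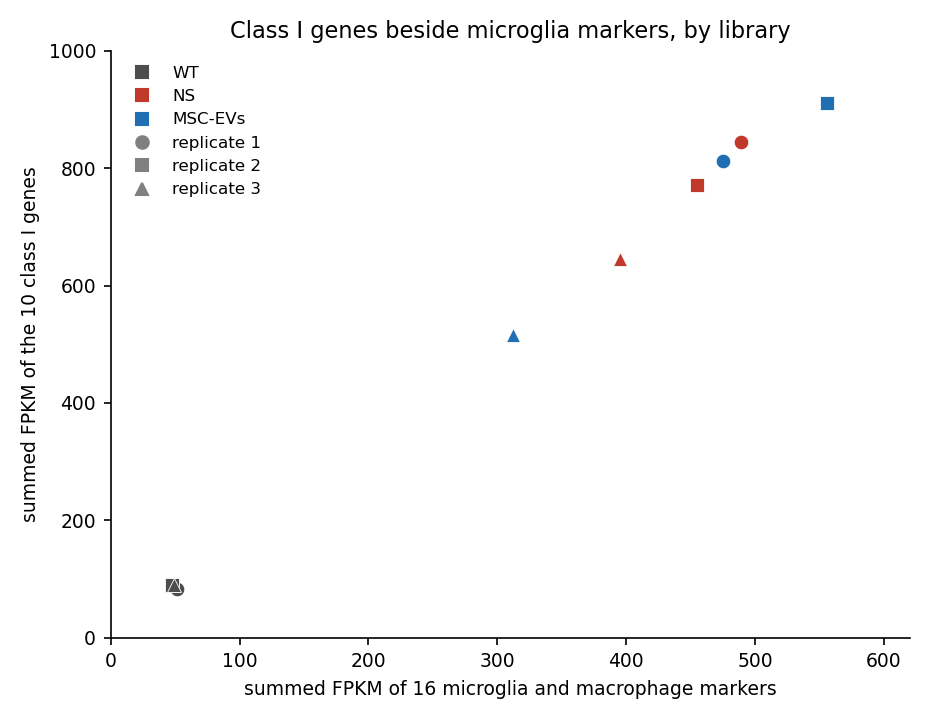
Summed FPKM of the 10 class I genes against summed FPKM of the 16 microglia and macrophage markers, 1 point per library, with colours for groups and symbols for replicates. The WT libraries lie together near the origin, and MSC-EVs replicate 3 has the lowest values of both sums among the rd10 libraries.

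Markers of other immune cells were less abundant. Of 8 markers of infiltrating monocytes and neutrophils, 5 passed the filter, each with 0 to 2 counts in every WT library, so that they passed only through the NS libraries and had to be higher there. Their summed FPKM was 0.14, 0.26 and 0.08 in WT, 24.1, 9.95 and 10.3 in NS, and 26.8, 24.2 and 4.50 in MSC-EVs. By group means, Ly6c2 was the most abundant of them in WT and NS and Ms4a4c in MSC-EVs, and S100a8 and S100a9 were at 0 in WT. Of 15 T and NK cell markers 2 could be tested, Lck and Cd8a, and both were higher in NS (log2 fold changes 2.21 and 1.23), but Lck passed the filter only through the NS libraries. The sum of this list was 0.87, 0.50 and 0.60 FPKM in WT, 7.32, 3.65 and 3.81 FPKM in NS, and 6.90, 7.92 and 2.31 FPKM in MSC-EVs. Cd3d, Cd3e, Cd2, Nkg7, Prf1, Ncr1 and Klrd1 were at 0 in WT. By group means, Cd8a was the most abundant in WT and Lck in NS and MSC-EVs. By DESeq2, which was run without that filter, 9 of the 15 were differentially expressed, beside 1974 of all 17980 genes it tested. The 5 B cell markers, led by Cd79b in the NS mean and by Pax5 in the others, summed to at most 0.93 FPKM in any library, with Ms4a1 at 0 in WT. The 1 that edgeR could test was not differentially expressed (unadjusted p over 0.05), while DESeq2 gave 1 of 5. Their part in the class I values was not tested.

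Markers of retinal cells were present, as the tissue label says. The summed FPKM of 10 rod markers was 30060, 29329 and 30786 in WT, 8147, 8826 and 6435 in NS, and 6570, 8418 and 9655 in MSC-EVs. In NS, 9 of these 10 rod markers were differentially expressed and lower, beside 522 of all 14644 genes tested. Of 10 Müller glia markers, led by Apoe in both rd10 groups and by Glul in WT, 6 were higher. Their sum was 2098 ± 71.8 FPKM in WT, 4801 ± 338 FPKM in NS and 4265 ± 88.3 FPKM in MSC-EVs (SD, n = 3). Of 11 endothelial and pericyte markers, led by Kdr, 1 was differentially expressed, Vwf, which was higher (1.79). At an edgeR adjusted p under 0.05, 9 of the 11 were higher, beside 61.3% of all genes in either direction. The sum of the 11 markers was 83.9 ± 2.90 FPKM in WT, 157 ± 2.92 FPKM in NS and 152 ± 11.7 FPKM in MSC-EVs (SD, n = 3). None of 6 bipolar markers, led by Pcp2, was differentially expressed by edgeR or DESeq2. By edgeR, 4 of the 6 had an unadjusted p under 0.05, beside 65.0% of all genes. At an edgeR adjusted p under 0.05, 3 were higher and 1 lower, beside 61.3% of all genes. Of 8 pigment epithelium markers, led by Rdh5, 3 were higher, among them Best1, which passed the filter only through the NS libraries. Their sum ranged from 13.4 to 55.3 FPKM over the rd10 libraries and was highest in NS replicate 1. Of 6 fibroblast markers, led by Pdgfra, 5 were tested and 3 were higher. The part of these cells in the class I values was not tested.

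MSC-EVs-treated and NS-treated rd10 retinas were compared to ask whether the vesicles change these genes. None of the 10 was differentially expressed, and none reached 0.05 with or without adjustment in edgeR's quasi-likelihood test or in DESeq2's Wald test. The smallest adjusted p was 0.532, for Psmb10. Over all 14765 genes tested, 0.0610% were differentially expressed and 1.16% had an adjusted p under 0.05. The libraries of both groups overlapped for all 10 genes, while 26.3% of all genes did not overlap. The log2 fold changes were above 0 for 3 genes and below 0 for 7 (5 and 5 by DESeq2), with a median of -0.013, and ran from -0.26 for Psmb9 to 0.34 for Tap1.

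The 95% intervals give the range of differences that these libraries leave possible. For H2-D1 the log2 fold change was 0.08 with a 95% interval of -0.27 to 0.43, and for Tapbp it was -0.0034 with an interval of -0.42 to 0.42. H2-K1 was at -0.0051 with an interval of -0.56 to 0.55, and B2m at -0.02 with an interval of -0.69 to 0.65. Psmb8 was at -0.06 (interval -0.82 to 0.70), Tap2 at -0.11 (interval -0.60 to 0.39) and Psmb10 at -0.24 (interval -0.69 to 0.20). The widest intervals were those of Tap1, from -0.61 to 1.29, and Psmb9, from -1.22 to 0.69. For Nlrc5 even the sign depended on the scale. The fit on counts gave 0.25 (interval -0.50 to 1.00), whereas its mean FPKM with MSC-EVs was 0.885 times that in NS.

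**Figure D5:**
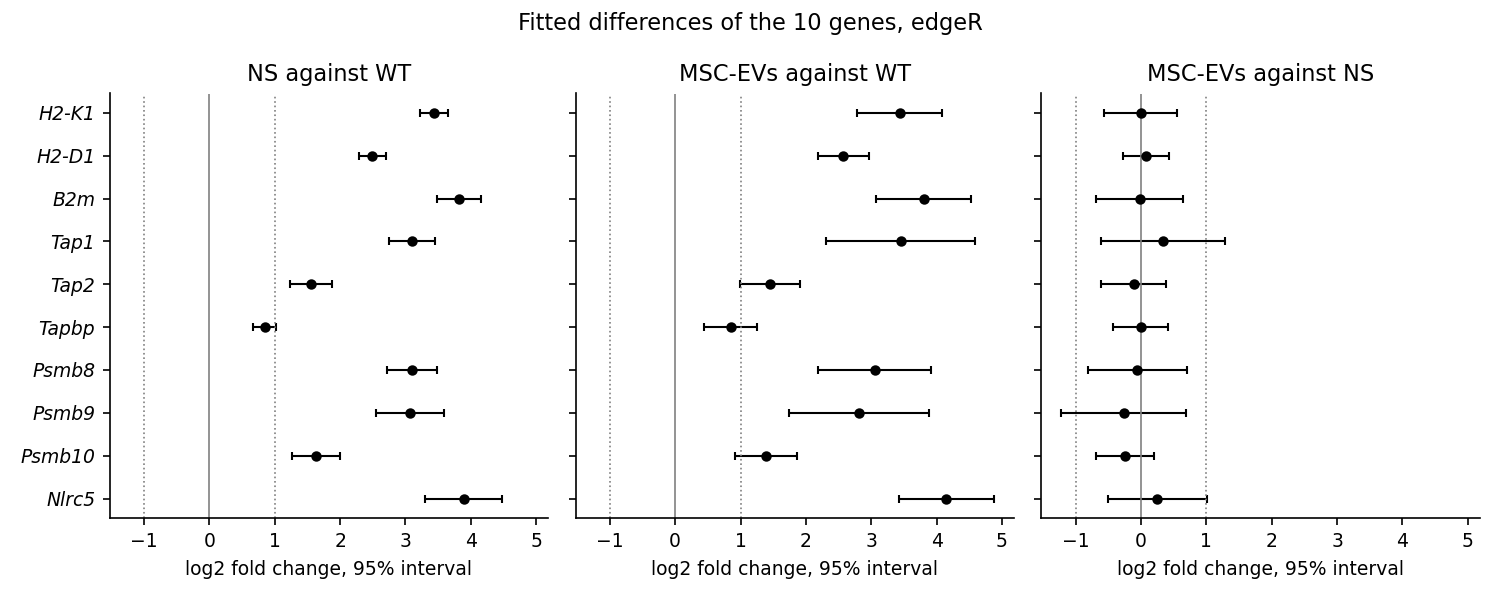
Log2 fold change of each of the 10 genes with its 95% interval from edgeR, for NS against WT, MSC-EVs against WT and MSC-EVs against NS, with a solid line at 0 and dotted lines at -1 and 1. The intervals of both comparisons with WT lie above 0 for all 10 genes, and all intervals of MSC-EVs against NS cross 0.

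The standard errors of all 10 genes were smaller without MSC-EVs replicate 3, that of Tap1 at 0.13 in place of 0.38 and that of B2m at 0.14 in place of 0.27. MSC-EVs replicate 3 had the lowest FPKM of its group for all 10 class I genes, whereas this library was lowest for 36.4% of all genes tested. It was also the lowest for all 16 microglia and macrophage markers, 7 of 8 monocyte and neutrophil markers and 13 of 19 other class I heavy chains. The same held for 8 of 10 Müller glia markers, 6 of 7 trimming and loading genes and 10 of 15 regulators. For the constitutive 20S proteasome genes it was lowest in 3 of 14, for bipolar markers in 1 of 6 and for rod markers in 0 of 10. This library was the highest of its group for 8 of 10 rod markers, beside 33.2% of all genes tested. In NS, replicate 3 was likewise the lowest for all 10 class I genes, against a background of 27.7%, and for 12 of 16 microglia markers. Without MSC-EVs replicate 3, 9 of the 10 log2 fold changes against NS were above 0, from -0.06 to 0.67, with a smallest edgeR adjusted p of 0.0505, that of Tap1. Among libraries with a summed Y-linked level of at most 0.14 FPKM, which leaves MSC-EVs replicate 3 alone against the 3 NS libraries, all 10 were below 0, from -1.37 to -0.24. In that fit 8 genes had an unadjusted p under 0.05 and none an adjusted p under 0.05 (smallest 0.0516), beside 18.4% of all genes at that unadjusted p, with the lone library assumed to vary as the NS libraries do. A fit with Y-linked expression as a covariate is no separate evidence. Since that level was high in MSC-EVs replicates 1 and 2 alone, its group term is again replicate 3 against NS, and it gave -1.36 to -0.24 with a smallest edgeR adjusted p of 0.0679. The direction of the 10 genes between MSC-EVs and NS therefore turned on which MSC-EVs libraries were counted. In MSC-EVs replicate 3, Y-linked expression, depth, class I level and the markers of microglia, Müller glia and rods cannot be told apart.

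The pathway and cell type lists held no differentially expressed gene between MSC-EVs and NS by edgeR or DESeq2. At an unadjusted p under 0.05, edgeR gave 0 of the 13 tested heavy chains, 0 of 14 constitutive 20S genes, 1 of 7 trimming and loading genes, 1 of 5 activators, 5 of 15 regulators, 3 of 9 interferon signalling genes and 0 of 16 microglia markers, beside 20.2% of all genes tested. Among the 5 regulators, Ciita passed the filter only through the MSC-EVs libraries. For other cell types it gave 4 of 10 Müller glia, 3 of 6 bipolar, 2 of 8 pigment epithelium, 2 of 10 rod and 2 of 11 endothelial markers. None of the tested monocyte and neutrophil, T and NK cell, B cell or fibroblast markers passed. Median log2 fold changes were -0.06 over the heavy chains, -0.08 over the constitutive 20S genes, 0.24 over the regulators (0.22 over the 14 without Ciita), 0.13 over interferon signalling and 0.01 over the microglia markers. Stat3, which carries signals of the interleukin 6 family, passed on its edgeR adjusted p (0.0252) at a rise of 0.54 log2 units (standard error 0.08), below the limit on the fold change. The bipolar marker Pcp2 also passed, and was lower (-0.41, standard error 0.08, edgeR adjusted p = 0.0451). DESeq2 gave an adjusted p under 0.05 to 4 of 15 regulators, 2 of 11 interferon signalling genes, 2 of 10 Müller glia markers and 1 of 6 bipolar markers, none past the limit on the fold change, beside 5.01% of all genes. Stat3 was at 55.1, 68.8 and 62.8 FPKM in NS and 92.4, 93.0 and 87.0 FPKM in MSC-EVs, without overlap. Irf8 was at 0.40 (edgeR adjusted p = 0.270) and Irf1 at 0.01 (edgeR adjusted p = 0.993). The proteasome ratios differed by 0.09, -0.32 and -0.14 log2 units for Psmb8, Psmb9 and Psmb10 over their counterparts (exact permutation test, two-sided, p = 0.900, 0.800 and 0.700).

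Against WT, MSC-EVs-treated retinas gave fold changes that stand beside those of NS as follows. Of the 10 genes, 9 were differentially expressed and higher, while 9.0% of the 14623 genes tested were. All 10 lay without overlap above WT, which held for 32.4% of all genes. The comparisons with WT share the WT libraries, so they are not independent. Nlrc5 was 4.15 log2 units higher (standard error 0.32, edgeR adjusted p = 1.45e-05), B2m 3.80 (standard error 0.28), Tap1 3.45 (standard error 0.46) and H2-K1 3.44 (standard error 0.26). Psmb8 was 3.05, Psmb9 2.81, H2-D1 2.57, Tap2 1.45 and Psmb10 1.39 log2 units higher. Tapbp again stayed under the limit, at 0.85 log2 units with a standard error of 0.17 and an edgeR adjusted p of 0.00582. When MSC-EVs replicate 3 was left out, Tapbp reached 1.02 and all 10 were differentially expressed. With that library alone, Tap2 (0.98) and Psmb10 (0.96) fell just under the limit and 7 remained.

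Of the 12 tested heavy chains 8 were differentially expressed and higher, led by H2-Q6 (4.20), H2-Q4 (3.91), H2-Q7 (3.60) and H2-T23 (3.21). Erap1 (1.32) and Tapbpl (1.06) were again the 2 higher genes of peptide trimming and loading, and none of the 5 activators or the 14 constitutive subunits was differentially expressed by edgeR or DESeq2. At an edgeR adjusted p under 0.05, 3 activators were higher and 6 constitutive subunits lower, beside 55.5% of all genes in either direction (3 and 8 at an unadjusted p, beside 60.9%). Of the 15 regulators 7 were higher, with Irf8 at 2.93, Irf9 at 2.64, Irf1 at 2.28 and Stat3 at 2.25 log2 units. The 3 higher genes of interferon signalling were Socs3 (4.32), Socs1 (1.99) and Ifnar2 (1.17), and all 16 microglia markers were higher, with a median of 3.42. In this comparison H2-Q2, Aif1, Ptprc, Socs1 and 1 of the 7 regulators, Ciita, passed the filter only through the MSC-EVs libraries.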

How the data were processed

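Poly(A) mRNA of mouse retinas was sequenced in 9 libraries, 3 each of WT, NS and MSC-EVs. The authors deposited 1 table with expected counts and FPKM per gene and library, in which FPKM scales the counts to transcript length and library size. The submitters' processing notes name fastp, Bowtie2, HISAT2, StringTie 1.3.1 and RSEM, without roles. The build, the annotation and the use of strand are not given in the sources used here. Libraries held 19491717 to 62532343 counts.

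The expected counts, deposited with decimals for some genes, were rounded to whole numbers, although whole counts had been planned for. They were tested in edgeR 4.0.16 (R 4.3.3) separately for each pair of groups, with filterByExpr, TMM factors, robust quasi-likelihood fits and Benjamini-Hochberg adjustment over all genes tested. A gene was differentially expressed where the adjusted p was under 0.05 and the log2 change at least 1 in size. Ratios within a library used FPKM and exact permutation tests with scipy 1.17.1. Counting limits cover counting error only. Alternatives were DESeq2 1.42.0, limma 3.58.1 on log2(FPKM + 1) or log2(FPKM + 0.1), other scalings, filters and samples, a replicate block and leaving out libraries. The tests were tried on simulated data first.

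Identifiers were matched to GENCODE M21 on GRCm38 (22283 of 22337) for positions, and RefSeq promoters (GRCm38.p6) were found for 8 of the 10 genes. Members, gene lists and cell type markers were chosen with earlier results of these data known. All 10 members are named in each comparison, as are up to 4 genes of a pathway list with the largest change among those differentially expressed, the constitutive counterparts Psmb5, Psmb6 and Psmb7, Irf1 and Irf8, the most abundant marker of each cell type and markers at 0. Some genes that this rule names are not reported here. Some others are said to have been chosen after their values were seen.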

Additional observations from a re-analysis of the deposited data

How the results depend on the processing

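The 9 genes called in NS against WT and the absence of calls in MSC-EVs against NS held under all alternatives run for them, except that Tapbp was also called in NS against WT by limma on log2(FPKM + 0.1) (1.03) and with no limit on the fold change. In MSC-EVs against WT, 7 to 10 of the 10 were called. No called gene changed direction. Over all genes, NS against WT gave 1863 differentially expressed genes, but 985 with limma on log2(FPKM + 1), 988 with that and no filter, and 8972 with no limit on the fold change. MSC-EVs against WT gave 1784, and 1002, 1010 and 8117 under the same alternatives. MSC-EVs against NS was the least stable, with 9 genes in edgeR, 40 with DESeq2's Wald test, 38 with all 9 libraries in one fit, 172 with no limit on the fold change, and 0 with limma on log2(FPKM + 1) and no filter (18 at an unadjusted p under 0.05). Leaving out 1 library gave 0 to 82 genes. It was 0 by edgeR without NS replicate 3 or MSC-EVs replicate 1 (99 and 102 at an unadjusted p under 0.05), 5 without NS replicate 2, 21 without NS replicate 1, 22 without MSC-EVs replicate 3 and 82 without MSC-EVs replicate 2. With Y-linked expression as a covariate it was 28, and it was 85 with MSC-EVs replicate 3 alone, which was chosen after seeing the data. The causes were not tested.

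With the replicate number as a block (replicate block), MSC-EVs against NS gave 21 genes and none of the 10. Deviations of same-numbered libraries correlated at 0.03, 0.20 and 0.19 between these groups, and those of differently numbered ones at -0.21 to 0.06. In the comparisons with WT, same-numbered libraries correlated at -0.08 to 0.08. The study gave rd10 littermates either treatment, but the labels do not say that the numbers pair the samples. Whether they do cannot be told from these values. The block changed no call on the 10 genes. On the FPKM scale, the median of all genes moved to 0.14 in NS against WT and 0.12 in MSC-EVs against WT with limma on log2(FPKM + 1), well below the medians of the 10 genes (2.07 and 2.01). Nlrc5 and Psmb9 had at most 16 counts per WT library, and their rises in NS were 1.60 and 1.83 on that scale.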
